A study of Saccharomyces cerevisiae with 36 samples.

Results

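The comparison set position 12 of the yeast metabolic cycle against position 10, on the 6 arrays labelled with those positions among 36 arrays in all. The 3 arrays of position 12 (1 in each of cycles 1, 2 and 3) were set against the 3 arrays of position 10 from the same cycles, and every gene with a probe set of its own was tested. The samples are total RNA of Saccharomyces cerevisiae, budding yeast, from a continuous culture, in which medium flows in and cells flow out at the same rate. Each cycle was divided into 12 intervals of about 25 min, so that positions 10 and 12 lie about 50 min apart. No genotype, strain or added agent is given in the labels for either group. Both groups come from the same kind of culture, and cycle position is the only difference between them that the labels give. The 3 arrays of position 11, halfway between, gave the course and entered the estimate of the spread, which therefore rests on 9 arrays. The labels name no separate cultures, so that each p-value reflects the scatter of these arrays and nothing wider, and the bulk RNA cannot tell more cells of a kind from more RNA per cell.

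In the metabolic cycle, yeast held at low nutrient supply alternates between bursts of respiration and longer stretches of low oxygen use. The genes for ribosomes and amino acids, for mitochondria and cell division, and for stress and storage have been described as peaking in successive parts of the cycle, and DNA replication and division as gated to one of them. Within division, G1 cyclins open the S-phase programme of replication enzymes, and mitotic cyclins with the Swi5 group of transcription factors follow it before the cell wall between mother and daughter is closed. Fatty acids are burnt by beta oxidation in yeast peroxisomes, and the inositol-regulated genes make the phospholipids of membranes.

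The stretch was among the quieter ones of the cycle. The median absolute log2 difference between position means 2 intervals apart was 0.176 from position 10 to position 12. Lower was only the step from position 4 to 6, at 0.157, and that from position 5 to 7 was close at 0.184. The largest were 0.501 from position 7 to 9 and 0.496 from position 12 to position 2. These are descriptions of the same 36 arrays, and the order of the steps was not tested.

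**Figure D1:**
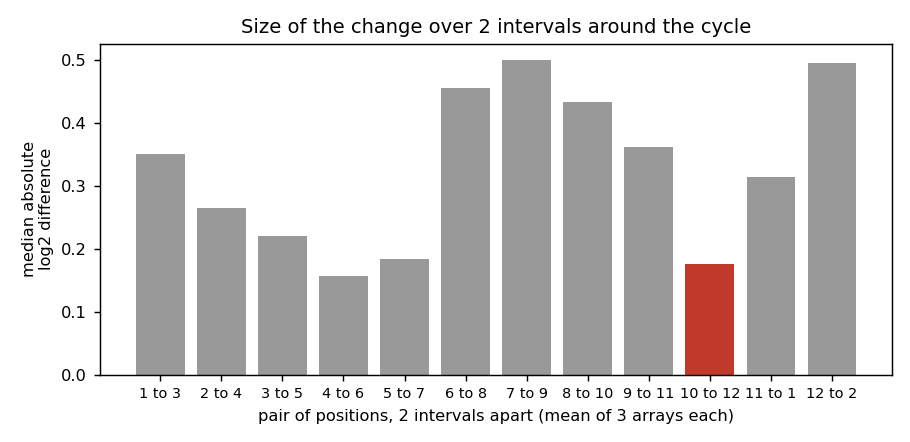
Median over 5656 genes of the absolute log2 difference between the means of 2 positions that lie 2 intervals apart, for each of the 12 starting positions (3 arrays per mean). The bar for positions 10 to 12, in red, stands at 0.176, between 0.157 for positions 4 to 6 and 0.184 for positions 5 to 7, and the highest bar is 0.501 for positions 7 to 9.

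Intensities are given as deposited, as multiples of the array median, and a log2 change is the difference of log2(intensity + 0.0516) between positions 12 and 10, fitted by limma with the cycle as a block. This scale understates the change of dim genes. A gene is called at a Benjamini-Hochberg adjusted p under 0.05 over all 5656 genes. At that threshold 147 genes were higher at position 12, which is 2.6% of those tested, and 126 were lower, which is 2.23%, or 4.83% in both directions. Of these, 47 (0.831%) had risen at least 2-fold and 24 (0.424%) had fallen at least 2-fold. The counts of called list members below stand beside 2.6% higher and 2.23% lower over all genes. The largest rise was 3.01 and the largest fall -2.03, of the dim gene INA1, on the log2 scale, beside a median standard error of 0.169. Every called gene moved in the same direction in each of the 3 cycles, against 18.4% of all genes for a rise and 20.4% for a fall. The arrays of the 2 positions did not overlap for 144 of the genes called higher and 123 of those called lower, against 11.4% and 10.9% of all genes. The test picks genes by these same differences, so neither count is separate evidence that the cycles agree.

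How many genes passed depended on the cycles used. Leaving out cycle 1, 2 or 3 gave 181, 106 and 49 genes higher and 99, 81 and 46 lower. Without the block for the cycle, 67 were higher (1.18%) and 38 lower (0.672%), and with the spread taken from all 36 arrays 46 and 17. A core of 40 higher and 27 lower genes was called whichever cycle was left out. The dimmest 25% of the genes by their mean over all arrays, called dim below, gave 25 of the higher and 29 of the lower calls, which leaves 122 (2.16% of all genes) and 97 (1.71%) brighter ones.

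Libraries and controls were as follows. The correlation of log2 values between arrays of one position was 0.971 to 0.989, and between arrays of different positions 0.953 to 0.989. The bacterial spike controls differed between positions 12 and 10 by -0.63, 0.41 and 0.20 on the log2 scale in cycles 1, 2 and 3. The 18S ribosomal RNA probes differed by -0.02, -0.65 and -0.02. Over all genes the median change was -0.10, -0.03 and 0.05 in the 3 cycles. These per-array shifts are as large as many of the smaller changes below, and their part in the results was not tested. The precision is limited by the number of arrays, 3 at each position.

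**Figure D2:**
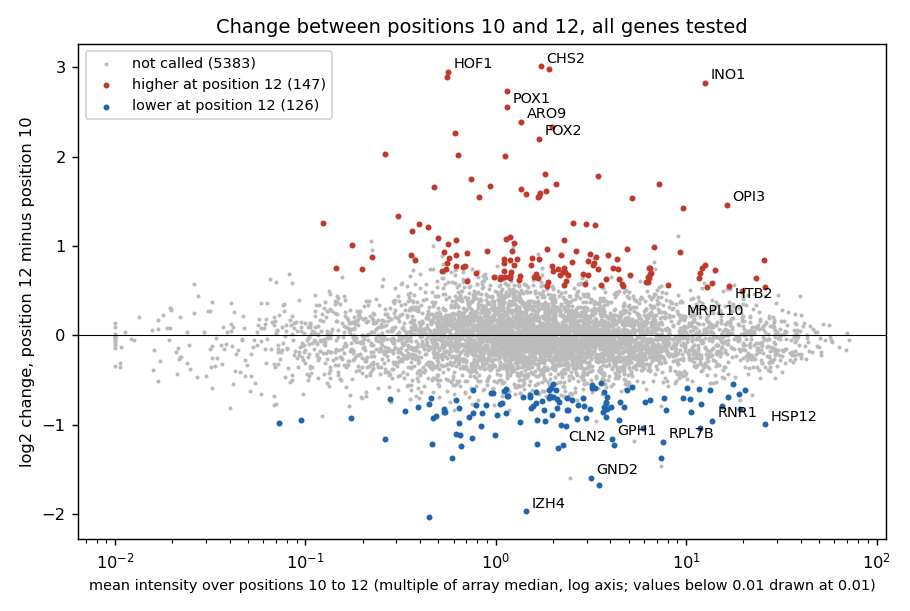
Log2 change between positions 10 and 12 (vertical axis) against the mean intensity over positions 10 to 12 (horizontal axis, log scale, multiples of the array median), 1 point per gene, 5656 in all. The 147 genes called higher (red) reach 3.01 and the 126 called lower (blue) reach -2.03, and most others lie close to 0.

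The largest rises were in genes of mitosis and cell separation. Of 39 measured genes for mitotic cyclins and mitotic exit, 9 rose (23.1%, against 2.6% of all genes) and 0 fell. The median of the list was 0.10 against -0.03 over all genes. CHS2 (YBR038W), the chitin synthase that builds the primary septum, read 0.358, 0.421 and 0.416 at position 10 in cycles 1, 2 and 3 and 2.29, 4.97 and 3.97 at position 12. Every array of position 12 lay above every array of position 10, and the middle arrays, at 0.705, 1.17 and 1.27, lay between them. The change was 3.01 ± 0.18 (SE, n = 3 cycles; adjusted p = 9.53e-07, limma), a factor of 8.05. CLB1, a B-type cyclin of mitosis, went from 0.222, 0.446 and 0.591 to 3.20, 3.24 and 3.97, a rise of 2.98 ± 0.21 (adjusted p = 1.62e-06). Its sister cyclin gene CLB2, a dim one, went from 0.234, 0.243 and 0.236 to 0.864, 1.44 and 1.13 and rose by 2.02 ± 0.20 (adjusted p = 3.52e-05). Neither gene's positions overlapped.

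The same held for regulators that act with these cyclins. SWI5, which encodes a transcription factor for genes of the M/G1 boundary, rose by 2.89 ± 0.22 from a dim level of 0.0814 to 0.138 at position 10 to between 0.780 and 1.58 at position 12. CDC5, the polo kinase, read 0.711, 0.800 and 0.742 and then 1.91, 2.91 and 2.36, a rise of 1.59 ± 0.17. ALK1, a haspin-like kinase, rose by 2.01 ± 0.16. The bud-site protein BUD4 rose by 1.56 ± 0.21, on a probe set that can match several transcripts, and its adjusted p was 0.0632 when all probe sets of the gene were averaged. The dim WSC4 and HST3, the latter a histone deacetylase, completed the 9, with rises of 1.75 ± 0.22 and 1.17 ± 0.24. HOF1, which works at the bud neck in cytokinesis and belongs to no list here, read 0.140, 0.118 and 0.114 at position 10, 0.154, 0.151 and 0.169 at position 11 and 0.707, 1.80 and 1.72 at position 12. Its rise of 2.95 ± 0.26 (adjusted p = 1.3e-05) thus fell almost wholly within the last interval, where the step alone was 2.69 ± 0.26 (adjusted p = 0.000567). The list had 9, 9 and 8 members called higher without cycles 1, 2 and 3, 8 without the block and 9 with all 36 arrays. HST3 lost its call without cycle 1 (adjusted p = 0.0875), cycle 3 (0.0852) and the block (0.0563).

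Other mitotic genes did not pass the test. CDC20, the activator of the anaphase-promoting complex, read 0.768, 0.475 and 0.621 at position 10 and 0.757, 1.01 and 1.02 at position 12, with a change of 0.56 and a 95% interval from 0.13 to 0.98 (adjusted p = 0.141). Of 44 genes of the spindle and the spindle pole body, 1 rose (2.27%, near the 2.6% of all genes). It was the midzone protein gene ASE1, at 0.76 ± 0.19. That gene is dim, and its call was lost when any one of the 3 cycles was left out (adjusted p 0.0532, 0.0803 and 0.237) and without the block (0.109).

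The calls among S-phase genes were all falls. Of 54 measured genes for S-phase cyclins and the replication fork, 13 fell (24.1%, against 2.23% of all genes) and 0 rose. The median was -0.42. In 38 of the 54 the value was lower at position 12 in each cycle, against 20.4% of all genes, and in 29 the arrays did not overlap, against 10.9%. RNR1, the large subunit of ribonucleotide reductase, read 27.4, 18.2 and 11.5 at position 10, 14.7, 13.5 and 9.81 at position 11 and 9.62, 9.38 and 8.75 at position 12. The starting level differed more between cycles than the final level did, and no array of position 12 reached one of position 10. The change was -0.95 ± 0.18 (adjusted p = 0.00778), and the adjusted p was 0.077 without the block.

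Enzymes of the fork shared this course. POL30, the sliding clamp that holds polymerases on DNA, read 5.63, 4.77 and 3.87 and then 3.65, 1.98 and 2.37, a change of -0.85 ± 0.18. POL12 and PRI2, of the polymerase alpha-primase complex, fell by 0.80 and 0.94 on the log2 scale, and TOF1, a fork-pausing factor, fell by 0.95. CDC21, which makes thymidylate, fell by 1.01 from 3.25, 3.53 and 2.48 to 1.59, 1.70 and 1.23, on a probe set that can match several transcripts. The S-phase cyclin gene CLB6, a dim one, went from 1.65, 0.641 and 0.508 to 0.475, 0.187 and 0.250, a change of -1.37 ± 0.21. Its partner CLB5 read 4.06, 3.21 and 2.62 and then 2.21, 2.22 and 2.37, and its change of -0.51 did not pass (adjusted p = 0.0865). The count of the list rested on all 3 cycles. It was 6, 6 and 5 without cycles 1, 2 and 3, 2 without the block and 0 with the spread of all 36 arrays. POL30 lost its call without cycle 2 (adjusted p = 0.108) or 3 (0.0665), PRI2 without cycle 1 (0.129), POL12 without cycle 1 (0.0584) or 2 (0.0602) and CDC21 without cycle 3 (0.0575). Without the block the calls of CLB6 (0.0945), POL30 (0.0578), POL12 (0.0855) and PRI2 (0.0814) were also lost.

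Among 19 regulators of G1 and start, 3 fell (15.8%, against 2.23% of all genes) and 1 rose (5.26%, against 2.6%). CLN2 is a G1 cyclin gene that counts as dim only by its mean over all arrays. It read 4.06, 3.31 and 2.81 at position 10 and 1.90, 1.10 and 1.33 at position 12, a change of -1.22 ± 0.20 (adjusted p = 0.00402, limma). PCL1, a cyclin of the Pho85 kinase, and the dim TOS4, a target of the G1/S transcription factors, changed by -0.82 ± 0.20 and -0.69 ± 0.18. Their calls were lost without cycle 3 (0.0664 and 0.179), TOS4 also without cycle 2 (0.461), and both without the block (0.0854 and 0.096). CLN1, the companion of CLN2, had a change of -0.54 and did not pass (adjusted p = 0.0896). The member that rose was YHP1, a homeodomain repressor of early cell-cycle genes. It went from 0.628, 0.771 and 0.922 through 1.73, 2.23 and 1.87 to 2.17, 2.85 and 2.28, a rise of 1.60 ± 0.16 (adjusted p = 3.52e-05) whose larger step was the first.

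The remaining division lists gave 1 to 3 calls each. Replication licensing had 15 measured members, of which the helicase subunits MCM3 and MCM5 fell, by 0.83 and 0.67, and the dim ORC1, of the origin recognition complex, rose by 0.85. MCM5 and ORC1 were each lost without cycle 1 (0.0924 and 0.0692), cycle 3 (0.199 and 0.0611) and the block (0.0812 and 0.0625). Among 20 genes of the M/G1 group and of daughter separation, ASH1, a repressor made for the daughter cell, fell from 2.40, 2.87 and 2.34 to 1.39, 1.49 and 1.14, and the cell wall gene HSP150 fell by 0.86. MCM5 is in this list too and made the other call. The median of the M/G1 list was -0.31, and in 11 of the 20 the arrays of position 12 lay wholly below, against 10.9% of all genes. ASH1 lost its call without cycle 3 (adjusted p = 0.0624). Of 11 histone genes in the list 5 were measured, CSE4, HHO1, HTB1, HTB2 and HTZ1. Of these 1, the variant HTZ1, rose by 0.66. Its call was lost without any one cycle (0.0882, 0.0709 and 0.0596) and without the block (0.0814). HTB2, a core histone gene, read 7.99, 15.2 and 18.3 at position 10 and 15.4, 19.6 and 16.1 at position 12. These ranges overlap, and the change of 0.38 had an interval from -0.09 to 0.84.

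Calls among cell surface genes went in both directions. In the cell wall list, 2 of 24 rose and 3 fell. CWP1, a mannoprotein, rose by 1.81 ± 0.16 from 0.630, 0.727 and 0.723 to 2.73, 2.73 and 2.22, and 1.59 of this came in the first interval. UTR2, a chitin transglycosylase, rose by 0.78 but not without cycle 2 (adjusted p = 0.228), cycle 3 (0.237) or the block (0.0721). SVS1 fell by 1.03 ± 0.16 from 18.5, 17.2 and 13.4 to 9.14, 6.35 and 8.46, while TOS6 and the glucanase gene SCW10 fell by 0.66 and 0.61. Of these, TOS6 and SCW10 lost their calls without cycle 2 (0.198 and 0.221) and the block (0.0625 and 0.118), and SCW10 also without cycle 3 (0.0744). Outside the lists, SUR7, a protein of plasma membrane domains, rose from 3.55, 3.05 and 3.23 to 9.70, 10.9 and 11.7 (change 1.70 ± 0.14, adjusted p = 5.64e-06). KCC4, a septin-associated kinase, had a change of -1.21 ± 0.25. Its level at position 10 was 4.93 in cycle 1 against 1.45 and 1.23 in the others, and its call was lost without cycle 1 (0.0712) and without the block (0.175).

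**Figure D3:**
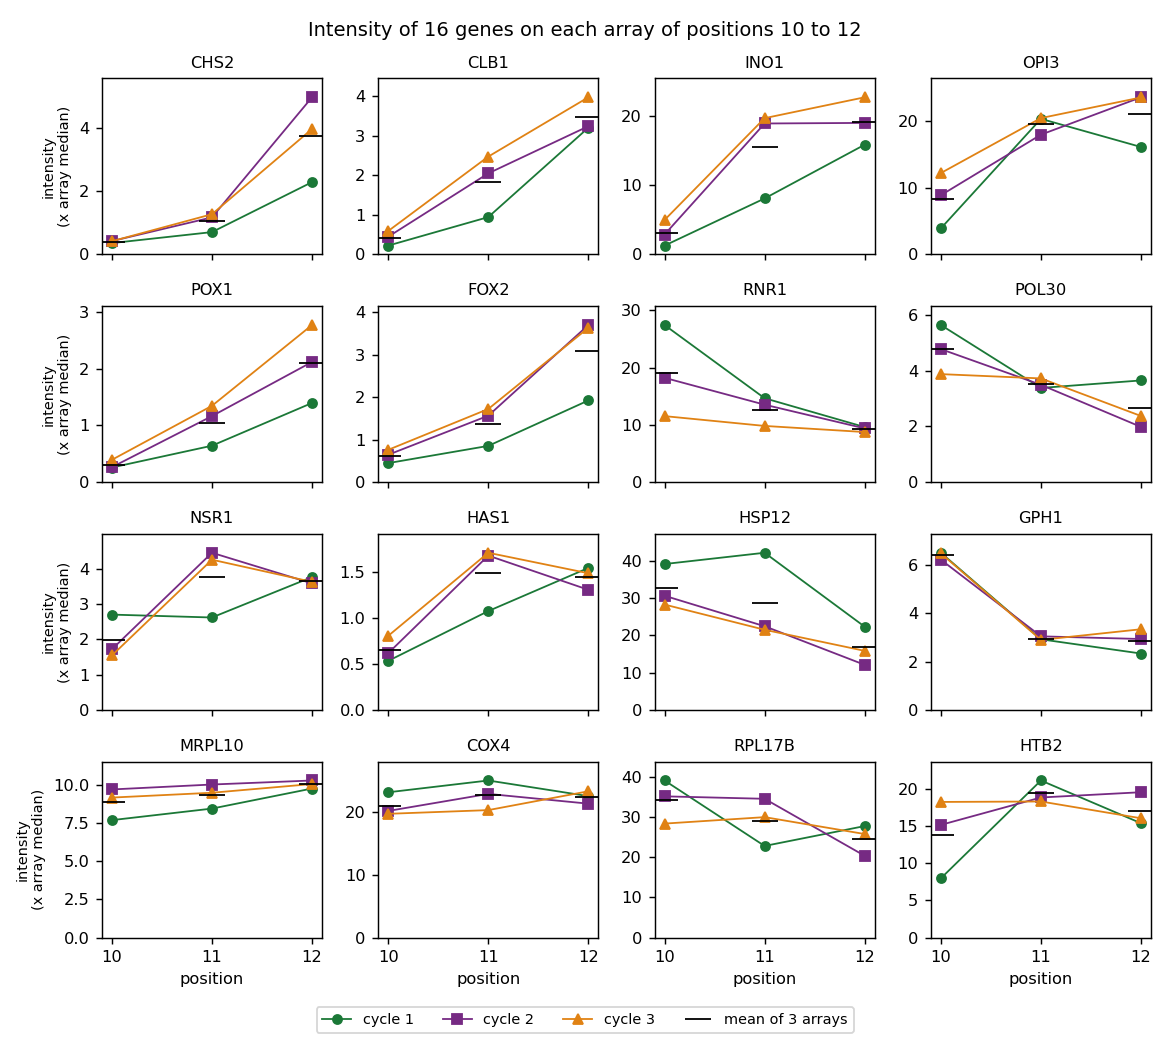
Intensity (multiples of the array median, linear axes from 0) of 16 genes on the 9 arrays of positions 10, 11 and 12, with 1 line per cycle and a dash at the mean of 3 arrays. CHS2, CLB1, INO1 and POX1 climb in each cycle, RNR1 and POL30 end below their start in each cycle, and MRPL10 and COX4 stay near their starting level.

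In the list of peroxisome and beta oxidation genes all calls were rises. Of 44 measured members 10 rose (22.7%, against 2.6% of all genes), 34 were not called and 0 fell, with a median of 0.17. The members that rose were largely the enzymes and transporters of the pathway itself. POX1, the acyl-CoA oxidase of the first step, read 0.258, 0.264 and 0.394 at position 10, 0.643, 1.17 and 1.35 at position 11 and 1.40, 2.12 and 2.77 at position 12. The 3 positions did not overlap, and the change was 2.56 ± 0.18 (adjusted p = 1.62e-06), a factor of 5.89. FOX2, the enzyme of the next steps, went from 0.447, 0.644 and 0.760 to 1.92, 3.70 and 3.63, a rise of 2.20 ± 0.16 (adjusted p = 1.62e-06). The peroxisomal catalase CTA1 rose by 1.64 ± 0.22, with 0.816, 0.582 and 0.638 before and 1.44, 2.48 and 3.01 after.

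The remaining calls of this list included genes that bring fatty acids into the pathway. FAA2, which activates fatty acids, rose by 1.55 ± 0.18. PXA2 and PXA1, the subunits of the transporter that carries long-chain acyl-CoA into the peroxisome, rose by 1.22 and 0.87. TES1, an acyl-CoA thioesterase, rose by 0.97, the isocitrate dehydrogenase IDP3 by 0.90, the carnitine acetyltransferase CAT2 by 0.85 and the isomerase ECI1 by 0.64. The thiolase POT1, which ends each round, read 0.881, 0.697 and 0.631 and then 0.723, 0.929 and 1.16, and its change of 0.31 did not pass (adjusted p = 0.465). SPS19, needed for unsaturated fatty acids, had a change of -0.04 with an interval from -0.37 to 0.29, and PEX11, which divides peroxisomes, 0.41 (adjusted p = 0.13). Without cycles 1, 2 and 3 the list had 11, 8 and 6 members called higher, without the block 6, and with all 36 arrays 4. The calls of PXA1 without cycle 2 (0.0507) and 3 (0.0728), IDP3 and CAT2 without cycle 3 (0.097 and 0.208) and ECI1 without cycle 2 (0.329) and 3 (0.236) were among those lost. Without the block PXA2 (0.0587), TES1 (0.0855), CAT2 (0.0817) and ECI1 (0.0625) did not pass.

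In the list of fatty acid and phospholipid synthesis the calls were again all rises. Of 30 measured genes 9 rose (30%, against 2.6% of all genes), 21 were not called and 0 fell, with a median of 0.19. INO1, which makes inositol phosphate for phosphatidylinositol, read 1.27, 2.88 and 4.98 at position 10 in cycles 1, 2 and 3, then 8.10, 18.9 and 19.7, and then 15.9, 19.0 and 22.7. The arrays did not overlap between positions 10 and 12, and 2.43 of the change of 2.83 ± 0.21 (adjusted p = 3.03e-06) lay in the first interval. OPI3, a methyltransferase of the route to phosphatidylcholine, went from 3.90, 8.88 and 12.2 to 16.1, 23.6 and 23.6, a rise of 1.46 ± 0.23 (adjusted p = 0.0032). In both genes cycle 1 started lowest.

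The other members that rose act in the same network. ITR1, the inositol transporter, read 15.3, 17.7 and 20.3 and then 29.6, 33.9 and 31.6, a rise of 0.84 ± 0.14. OPI1, the repressor of this gene group, rose by 0.86 ± 0.16, and the dim INO2, its activator, by 0.67 ± 0.18. CDS1, CHO1, PSD1 and CHO2, which make CDP-diacylglycerol, phosphatidylserine, phosphatidylethanolamine and its first methylated form, rose by 0.76, 0.75, 0.69 and 0.54. The list had 7, 8 and 5 members called higher without cycles 1, 2 and 3, 4 without the block and 3 with all 36 arrays. The weakest were CHO2, lost without any one cycle (0.0758, 0.229 and 0.215), INO2, likewise (0.164, 0.284 and 0.0604), PSD1 without cycle 1 (0.15) and 3 (0.174), and CHO1 without cycle 3 (0.109). These and CDS1 (0.0617) were also the members lost without the block, at 0.115 for CHO2, 0.154 for INO2, 0.0854 for PSD1 and 0.0657 for CHO1. ACC1, FAS1 and OLE1, the carboxylase, synthase and desaturase of fatty acids, had changes of -0.05, -0.24 and -0.35 with intervals from -0.34 to 0.23, -0.59 to 0.11 and -0.70 to 0.00, FAS1 on a probe set that can match several transcripts.

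The lists for ergosterol synthesis, for gluconeogenesis and acetate use, and for amino acid and ammonium uptake gave 2 or 3 calls each. In ergosterol synthesis 2 of 27 rose, HMG1, the reductase that commits carbon to sterols, by 0.78 ± 0.13 and ERG24 by 0.57 ± 0.15. HMG1 lost its call without cycle 3 (0.0539), and ERG24 without any one cycle (0.0763, 0.291 and 0.169) or the block (0.121). The count of that list moved with the setting, at 5, 1 and 0 without cycles 1, 2 and 3, 4 with trimmed-mean and 6 with quantile scaling, 1 without the block and 0 with all 36 arrays. Its median was 0.25, and 14 of the 27 were higher in each cycle, against 18.4% of all genes. CYB5, the cytochrome b5 that gives electrons to lipid enzymes, was chosen here after its values were seen. It rose from 2.48, 2.13 and 3.13 to 7.19, 7.88 and 7.46 (change 1.54 ± 0.15). Among 21 genes of gluconeogenesis, the glyoxylate route and acetate use, FBP1, IDP2 and ALD4 rose by 0.74, 0.67 and 0.54, and 0 were called without cycle 3 or without the block. Of 21 genes for amino acid and ammonium uptake 3 rose, the ammonium permease MEP3 by 1.25, the glutamine permease GNP1 by 1.03 and the peptide transporter PTR2 by 0.94, and 1 of the 3 remained called without cycle 3, since MEP3 (0.064) and PTR2 (0.124) did not. That list had 8 members called higher without cycle 1, 4 without cycle 2 and 0 with all 36 arrays.

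Single genes stood out in lists that otherwise gave no call. CYB2, the lactate dehydrogenase that feeds cytochrome c, went from 4.60, 4.95 and 5.78 to 11.5, 11.5 and 19.4 and rose by 1.42 ± 0.14 (adjusted p = 3.63e-05), the 1 call among 15 genes of the dehydrogenases and cytochrome c. CIT3, a mitochondrial citrate and methylcitrate synthase, was the 1 of 18 in the TCA cycle list, at 0.320, 0.381 and 0.691 before and 1.22, 1.80 and 1.60 after, a rise of 1.67 ± 0.20. HMX1 was the 1 of 9 in the haem list. It breaks haem down rather than making it, and it rose from 0.984, 0.935 and 0.970 to 2.49, 3.51 and 3.87 (change 1.70 ± 0.16, adjusted p = 2.31e-05). ARO9, an aromatic aminotransferase, and AIM20 belong to no list here and rose by 2.39 ± 0.17 and 2.33 ± 0.14. All 5 were called whichever cycle was left out and without the block.

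The calls in the ribosome assembly list were all rises of modest size. Of 96 measured members 14 rose (14.6%, against 2.6% of all genes), 82 were not called and 0 fell. The median of 0.42 was the highest of the 51 lists. The value was higher in all 3 cycles for 64 members, against 18.4% of all genes, and the arrays were apart for 52, against 11.4%. HAS1 (YMR290C), a helicase of both ribosomal subunits, read 0.531, 0.615 and 0.803 at position 10, 1.07, 1.67 and 1.70 at position 11 and 1.54, 1.30 and 1.48 at position 12. The change was 1.11 ± 0.18 (adjusted p = 0.00402), and all of it lay in the first interval. NSR1, a nucleolar protein of ribosomal RNA processing, read 2.70, 1.72 and 1.54 and then 3.77, 3.59 and 3.63. Its change of 0.91 ± 0.23 (adjusted p = 0.0394) was smallest in cycle 1, where it started highest.

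The helicases DBP2 and DHR2 rose by 1.07 ± 0.28 and 1.06 ± 0.20, and RRP12, an export factor, by 0.87 ± 0.15. This group hung on cycle 3. The list had 22 members called higher without cycle 1, 6 without cycle 2 and 1 without cycle 3, 3 without the block and 0 with all 36 arrays. It had 10 with trimmed-mean and 11 with quantile scaling, where its median was 0.46 and 0.43, and 6 without the variance trend. Without cycle 3 DBP2 (0.215), DHR2 (0.0527), NSR1 (0.218) and RRP12 (0.0697) lost their calls, and without the block DBP2 (0.0814, and not called under either scaling), DHR2 (0.0931) and NSR1 (0.0624). By cycle, the list median was 0.22, 0.50 and 0.52. RNA polymerases I and III had 1 of 31 called higher (3.23%, near the 2.6% of all genes). It was the initiation factor gene RRN11, at 1.02, and its call was lost without cycle 1 and without the block. That list also had 0 members called higher with dim genes left out and with all 36 arrays.

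The cytosolic ribosomal proteins did not share this. The lists name 79 genes of the large and 56 of the small subunit, of which 47 and 33 were measured. Of these 80 measured genes, 79 had a negative value, against 3083 of all 5656 genes, and 1 was called. The median was -0.22. At an unadjusted limma p under 0.05 there were 17, which is 21.25%, against 18.2% of all genes. By cycle the median was -0.48, -0.21 and -0.01, which is near 0 in cycle 3 and lies beside all-gene medians of -0.10, -0.03 and 0.05. The call was RPL7B, which read 17.0, 8.67 and 7.50 and then 4.61, 6.16 and 3.25, a change of -1.19 ± 0.22. It was lost without cycle 1 (0.0771), cycle 3 (0.0575) and the block (0.0625), and a second probe set of the gene gave -0.62. Of the 80 genes, 30 sit on probe sets that can match several transcripts, since most of these genes have a near-identical copy, so that single members are uncertain. RPL17B, on such a probe set, changed by -0.47 with an interval from -0.88 to -0.07 (adjusted p = 0.196).

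Falls were frequent in the heat shock list. Of 28 measured heat shock and chaperone genes 11 fell (39.3%, against 2.23% of all genes) and 0 rose. The median of -0.56 was the lowest of the 51 lists. In 22 of the 28 the value was lower in each cycle, against 20.4% of all genes. HSP42, a small heat shock protein, read 6.45, 7.00 and 6.54 at position 10, 3.99, 3.05 and 2.06 at position 11 and 2.28, 3.29 and 2.99 at position 12. The change was -1.22 ± 0.20 (adjusted p = 0.00399), with -1.17 in the first interval. SSA4, a stress-induced Hsp70, fell from 3.26, 3.56 and 3.04 to 1.46, 1.52 and 1.84, by 1.01.

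HSP12, a membrane protein of stressed cells, was the brightest at position 10 of the 11 that fell. It read 39.1, 30.6 and 28.3 and then 22.3, 12.1 and 15.8, a change of -0.99 ± 0.16 (adjusted p = 0.00265), and at position 11 it was still 42.2 in cycle 1 but 22.4 and 21.5 in the others. BTN2, SSE2 and DDR2 fell by 0.94, 0.91 and 0.79, and HSP82, the inducible Hsp90, by 0.69, on a probe set that can match several transcripts. SSA1, an Hsp70 made at all times, read 106, 55.8 and 52.2 and then 71.7, 57.3 and 53.7, and its change of -0.16 did not pass (adjusted p = 0.638). The count of the list was 12, 7 and 6 without cycles 1, 2 and 3, 5 without the block and 2 with all 36 arrays. DDR2 was lost without cycle 2 (0.0672), HSP82 without cycles 1 (0.0521) and 3 (0.15), and without the block HSP12 (0.0814), DDR2 (0.105) and HSP82 (0.111).

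Of 22 genes for trehalose and glycogen, 4 fell (18.2%, against 2.23% of all genes) and 1 rose (4.55%, against 2.6%). GPH1 (YPR160W), the phosphorylase that releases glucose from glycogen, read 6.51, 6.23 and 6.49 at position 10, 2.93, 3.05 and 2.90 at position 11 and 2.33, 2.94 and 3.34 at position 12. These arrays are tight within a position and far apart between positions 10 and 11, and the change of -1.16 ± 0.15 (adjusted p = 0.000401) was almost complete by position 11, at -1.10. PIG1, which targets a phosphatase to glycogen, fell by 0.87, the phosphoglucomutase PGM2 by 0.84 and the debranching enzyme GDB1 by 0.76. PGM1, the second phosphoglucomutase, rose from 0.836, 1.54 and 1.44 to 1.83, 1.97 and 2.03, by 0.64 ± 0.17. PGM1 and PGM2 thus had calls in opposite directions, and both were lost without cycle 3 (0.181 and 0.0922) and without the block (0.138 and 0.0882), PGM1 also without cycle 1 (0.129). PIG1 was lost without cycle 3 (0.0724), and GDB1 without cycle 1 (0.0712), cycle 3 (0.0604) and the block (0.077). The list had 3, 4 and 1 members called lower without cycles 1, 2 and 3, 2 without the block and 1 with all 36 arrays.

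Outside the lists the largest falls among genes that are not dim were IZH4, YRO2, GND2, YGP1 and SOL4. IZH4, a membrane protein of a family linked to zinc, read 2.32, 2.72 and 2.33, then 1.70, 1.05 and 1.03, then 0.721, 0.484 and 0.582, a change of -1.97 ± 0.19 (adjusted p = 2.31e-05). It was the 1 gene called lower in each of the 2 intervals. GND2, a minor 6-phosphogluconate dehydrogenase, fell from 4.21, 5.23 and 4.43 to 1.53, 1.32 and 1.65, by 1.59 ± 0.22. YGP1, a secreted glycoprotein made in starved cells, had a change of -1.37 ± 0.22 and YRO2 of -1.67 ± 0.29. YRO2 read 3.59, 5.73 and 6.57 before and 2.81, 1.10 and 1.27 after, and its call was lost without cycle 3 (adjusted p = 0.0764).

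**Figure D4:**
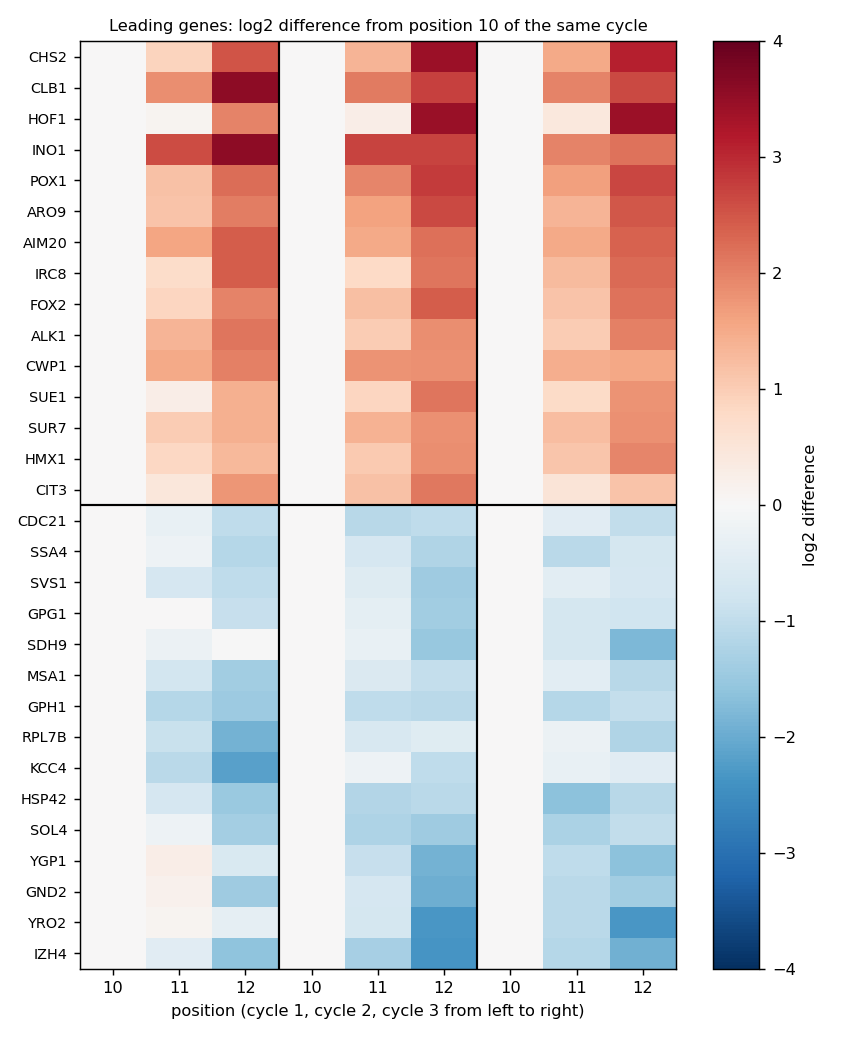
Log2 difference of each array from position 10 of the same cycle (colour, from -4 in blue to 4 in red) for the 15 genes with the largest rise and the 15 with the largest fall among called genes that are not dim, at positions 10, 11 and 12 of cycles 1 to 3. CHS2, at the top, averages 3.01 at position 12 and IZH4, at the bottom, -1.97.

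Mitochondrial lists gave no call, although single genes with products in mitochondria, such as CIT3 and CYB2 above, did. In 9 lists covering the mitochondrial ribosome and gene expression, import, the bc1 complex, cytochrome c oxidase, assembly factors and ATP synthase, 0 of 231 measured genes were called by limma, and 1 was when cycle 2 was left out, an ATP synthase subunit. At an unadjusted p under 0.05 there were 15, which is 6.49%, against 18.2% of all genes tested. Their median was 0.06 and their range -0.60 to 0.58, and the 95% interval of the change lay within a factor of 2 for 228 of them, against 92.6% of all genes. MRPL10, of the large mitochondrial ribosomal subunit, read 7.67, 9.68 and 9.15 and then 9.74, 10.3 and 10.0, a change of 0.19 with an interval from -0.09 to 0.46. COX4, a subunit of cytochrome c oxidase, read 23.2, 20.2 and 19.8 and then 22.6, 21.4 and 23.4, a change of 0.09 with an interval from -0.19 to 0.38. Of 109 genes for amino acid synthesis, sulfur assimilation included, 2 rose, ARG4 by 0.55 and ASN1 by 0.50. Both calls were lost without cycle 2, cycle 3 and the block.

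The other lists gave at most 5 calls each. Of 26 genes of septins, the bud site and chitin, BUD3 and the dim RAX2 rose, by 0.90 and 0.66, and RSR1, CRH1 and CHS1 fell, by 0.75, 0.74 and 0.59. BUD3, which marks the bud site, was called whichever cycle was left out and without the block, while CRH1 was lost without the block (0.103). RAX2, RSR1 and CHS1 were lost without cycle 2 (0.409, 0.455 and 0.536), cycle 3 (0.176, 0.0793 and 0.184) and the block (0.0541, 0.0819 and 0.0855). Of 35 genes of purine and pyrimidine synthesis 2 rose, the GMP synthetase GUA1 by 0.99 and the CTP synthetase URA7 by 0.75, and both were lost without cycle 3 (0.161 and 0.213). In DNA repair RMI1 rose by 0.72 and MSH6 and the dim RAD17 fell by 0.59 and 0.70, of 37 measured, and 0 of these 3 calls held without the block. The cohesin subunit IRR1 fell by 0.73, the 1 call of 16, and the vacuolar peptidase CPS1 by 0.78, the 1 call of 34 genes of autophagy and the vacuole, and both were lost without cycles 2 (0.121 and 0.0654) and 3 (0.0638 and 0.089) and the block (0.173 and 0.0617). A further 11 lists with 251 members in all gave 0 calls, and their medians lay between -0.16 for the proteasome and 0.09 for the nuclear pore. Leaving out cycle 1 gave 3 calls among iron and copper uptake, 2 among redox enzymes and 1 each for coenzyme Q and iron-sulfur clusters, and leaving out cycle 2 gave 1 each for the nuclear pore, hexose transport and the reference genes. The 11 were translation factors, cytosolic tRNA synthetases, coenzyme Q, iron-sulfur clusters, glycolysis, hexose transport, redox enzymes, iron and copper uptake and genes often used as references, beside the proteasome and the nuclear pore.

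**Figure D5:**
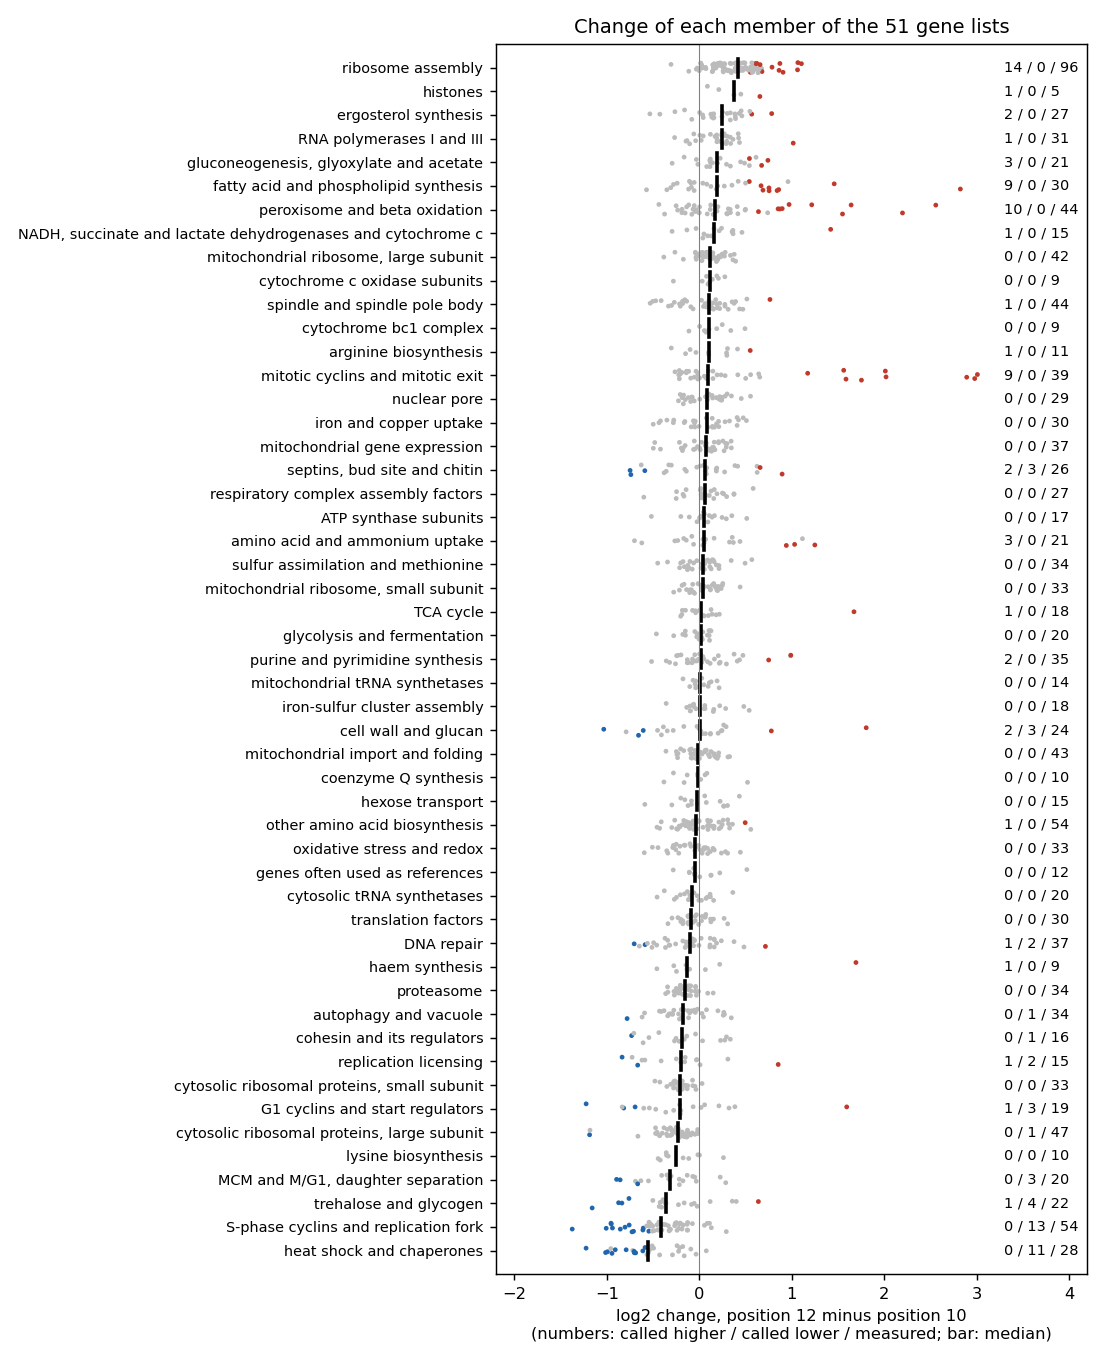
Log2 change between positions 10 and 12 of every measured member of the 51 gene lists, 1 point per gene (red called higher, blue called lower, grey not called), with a bar at each list's median and its counts at the right, ordered by median from ribosome assembly at 0.42 to heat shock at -0.56. The far points include CHS2, CLB1, INO1 and POX1 on the right and CLB6, HSP42 and CLN2 on the left.

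The middle position showed how the change was spread over the 50 min. From position 10 to 11, 26 genes (0.46%) were called higher and 16 (0.283%) lower. From position 11 to 12, 20 (0.354%) were higher and 2 (0.0354%) lower, these being IZH4 and DSE2, a daughter-cell glucanase whose change over the whole stretch, -0.55, did not pass. These steps share the arrays of position 11, and a call in one and not in the other is no test of their difference. Position 11 lay between the other means for 131 of the 147 genes called higher and 117 of the 126 called lower. The median step of the genes called higher was 0.58 in the first interval and 0.31 in the second, and of those called lower -0.49 and -0.36.

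No gene passed a test of a turn at position 11. For position 11 against the mean of positions 10 and 12, limma called 0 genes higher and 0 lower at an adjusted p under 0.05, with 501 genes, 8.86%, at an unadjusted p under 0.05. Leaving out cycle 2 gave 3 higher and 11 lower, and the spread of all 36 arrays 0 and 1. TPS2, a trehalose phosphatase, read 6.82, 6.35 and 5.80, then 3.58, 4.17 and 3.36, then 3.88, 5.89 and 5.16. It fell by 0.77 ± 0.16 in the first interval (adjusted p = 0.0436), and its change over both was -0.36 (adjusted p = 0.237).

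The counts of the steps also rested on single cycles. Without cycles 1, 2 and 3 the first interval gave 45, 51 and 11 genes higher and 27, 44 and 0 lower. Without cycle 3 the second interval gave 2 genes higher and 0 lower, and without cycle 1 it gave 13 higher. The mitotic genes CHS2, HOF1 and SWI5 had the largest steps in the second interval beside SFG1 and OPT2, while INO1, CLB1 and POX1 led the first.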

How the data were processed

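Total RNA was measured on Affymetrix arrays, 12 positions in 3 cycles, and each array was placed by the cycle and interval in its description. The authors deposited 1 linear intensity for each of 9335 probe sets, and in the deposited table the median of every array is 1. Probe summarisation and software are not given in the sources used here. Of the probe sets, 6504 had 1 gene symbol, 328 several, 2443 none and 60 were controls. The brightest probe set stood for a gene, which left 5656 genes, all matched to the gene table of assembly R64; 315 had a second probe set, and 276 sit on one that can match several transcripts. The 9 arrays of positions 10 to 12 held 136 zeros, which the pseudocount of 0.0516 (the 10th percentile of positive values) kept on the scale, and their means without the top and bottom 2% were 2.46 to 2.86. No filter on low values was used.

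limma 3.58.1 in R 4.3.3 fitted log2 values by position with the cycle as a block, with an intensity trend in the variance and Benjamini-Hochberg adjustment over all 5656 genes. Python 3.11.15 with pandas 2.3.3 and matplotlib 3.10.9 made tables and figures. The fit was tested on simulated data with normal scatter of the size seen for each gene. It called 16.4% of the genes given a log2 change of 0.5, 61.2% at 1 and 98.5% at 2. Of the genes given no change it called 0.11%. Most changes near 0.5 were thus missed there, and a gene not called is not shown to be unchanged. The cycle number in the labels is what pairs the arrays. Deviations from the position mean correlated at 0.213, 0.238 and 0.0878 between positions 10 and 12 of the same cycle. Over all 9 same-cycle pairs the range was 0.0878 to 0.377, and between different cycles it was -0.292 to 0.0155. The deviations of a position sum to 0 for each gene, so values above 0 within cycles bring values below 0 between them. The contrast of both ranges is therefore no test of the pairing.

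The genes named are drawn from the 15 largest rises and falls above the dimmest 25%, the 3 largest called members of each list with the member nearest 0, and a fixed set of cell-cycle, metabolic and ribosomal genes. Other members of the lists that were called or that complete a pathway, SFG1, OPT2, and INA1, whose fall was the largest, were chosen after their values were seen. The comparison, the 51 lists and the named genes were chosen with earlier results of these data known. Alternatives were the block, the arrays in the fit, each cycle left out, 2 scalings, 2 pseudocounts, a filter on dim genes, the mean of probe sets and 2 variance models.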

Additional observations from a re-analysis of the deposited data

How the results depend on the processing

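The cycle used as replicate block decided many calls: with no replicate block, 67 genes were higher and 38 lower at position 12 than at position 10. With the spread of all 36 arrays these were 46 and 17. Leaving out 1 cycle gave 49 to 181 higher and 46 to 99 lower. The other alternatives (6 arrays, both scalings, both pseudocounts, the filter on dim genes, the mean of probe sets and both variance models) stayed within 1.5 times of 147 and 126. Across every alternative 32 higher and 9 lower calls were kept. A fit of all probe sets, given at the end, is not counted among these alternatives. It called 79 probe sets higher and 66 lower. For position 11 against 10, higher genes numbered 11 with all 36 arrays, 49 with dim genes left out, 13 without the block and 11 to 51 with 1 cycle left out. Lower genes numbered 0 with all 36 arrays, 3 without the block and 0 to 44 with 1 cycle left out. For position 12 against 11, higher genes numbered 11 with all 36 arrays, 2 without the block and 2 to 26 with 1 cycle left out. Lower genes numbered 1 with all 36 arrays, with no variance trend, with the larger pseudocount and with quantile scaling, 4 with dim genes left out, 0 without the block and with trimmed-mean scaling, and 0 to 5 with 1 cycle left out. For the turn at position 11, 0 to 3 were higher and 0 to 11 lower with 1 cycle left out, and 1 was lower with all 36 arrays. The cause was not tested. Other scalings moved the median of all genes by less than 0.1. With 3 arrays a position, genes near or below the pseudocount have changes that are understated.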

Other observations

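The genes in this part were chosen after their values were seen, and they are given as values. Genes of the mitochondrial methylcitrate route, which handles propionyl-CoA, were higher at position 12: beside CIT3 at 1.67 ± 0.20, ICL2 went from 1.08, 1.65 and 1.81 to 3.06, 3.18 and 4.88 (log2 change 1.26 ± 0.15, adjusted p = 0.00027, limma) and PDH1 from 3.58, 4.64 and 5.84 to 5.20, 9.15 and 9.95 (0.75 ± 0.14, adjusted p = 0.007). Position ranges of PDH1 overlap, and its call was lost without cycle 2 (0.117), cycle 3 (0.0725) and the block (0.172). ARO10, a decarboxylase that acts after ARO9 in the breakdown of aromatic amino acids, rose by 0.81 ± 0.21, a call lost without cycle 2 (0.0514), cycle 3 (0.274) and the block (0.0814).

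Among the genes of the oxidative pentose phosphate route, SOL4 and GND2 fell and the others looked at were not called. SOL4, a 6-phosphogluconolactonase, read 3.55, 3.51 and 2.57 and then 1.35, 1.27 and 1.27 (-1.26 ± 0.23, adjusted p = 0.00645), beside GND2 at -1.59 ± 0.22. GND1, the major form of the dehydrogenase, read 30.7, 24.9 and 25.4 and then 27.2, 28.4 and 28.4, a change of 0.06 with an interval from -0.27 to 0.39. ZWF1, of the first step, had -0.20 with an interval from -0.50 to 0.10. SOL3 was higher in each cycle, with a change of 0.37 and an interval from 0.07 to 0.67 (adjusted p = 0.166, limma). SOL1 and SOL2 had changes of -0.30 and -0.24 (adjusted p = 0.399 and 0.43).

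MSA1, MSA2 and the dim STB1, which act on the G1/S transcription factors, fell by 1.15, 0.78 and 0.91. MSA1 was called under every alternative, MSA2 was lost without cycle 3 (0.123) and the block (0.0752), and STB1 without cycle 2 (0.0665). SNZ1 and SNO1, neighbours in vitamin B6 synthesis, fell by 0.80 and 0.65. SNO1 was lost without any one cycle (0.107, 0.196 and 0.13) and without the block (0.1), and SNZ1 without the block (0.0855).

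In a fit of all probe sets, added after the data were seen, 8 of the 79 called higher and 13 of the 66 called lower were among the 2771 probe sets with no single gene symbol. The totals of 79 and 66 lie below the 147 and 126 genes of the main fit, and the reason was not tested. The probe sets with no single symbol are unnamed here.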
